A study of Bos taurus with 6 samples.

Results

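The genes that encode the proteins of the mitochondrial ribosome were examined in bovine articular chondrocytes, which build and maintain joint cartilage, after exposure to TGF-β1. They were taken by name: every gene to which the array annotation gave a single symbol starting with MRPL or MRPS was a member, whatever its values. This gave 67 of the 9155 genes on the Affymetrix GeneChip Bovine Genome Array with a single symbol, measured by 84 probe sets. Cells isolated from the cartilage of 3 cows were grown as micromass cultures, in which they are plated at high density, and either left untreated (given vehicle) or given TGF-β1 at 5 ng/ml over a period of 8 hours. Total RNA of 3 untreated and 3 TGF-β cultures was amplified and hybridised, so there were 6 arrays, numbered 1 to 3 in each group. The cultures are primary cells of abattoir joints, and no age or sex of the cows is given in the sources used here.

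The mitochondrial ribosome translates the few messages of the mitochondrial genome, all of which encode subunits of the respiratory chain and of ATP synthase. Its RNAs are encoded in the mitochondrion, but every protein of it is encoded in the nucleus, made in the cytosol and imported. Compared with the bacterial ribosome from which it descends, it has lost RNA and gained proteins, so that some of its proteins have a bacterial counterpart and others are found only in mitochondria. Proteins named MRPL belong to the large subunit, which forms peptide bonds, and most of those named MRPS belong to the small subunit, which reads the messenger RNA. The names MRPS30 and MRPS18A are exceptions, since structures of the ribosome place both proteins in the large subunit, and MRPS36 is now known as KGD4, a part of the α-ketoglutarate dehydrogenase complex. By this assignment, 45 of the members encode large subunit proteins, 21 encode small subunit proteins and 1, MRPS36, encodes neither. A bacterial counterpart is known for the products of 38, and 28 are specific to mitochondria. Cartilage has no blood vessels and little oxygen, and chondrocytes draw most of their ATP from glycolysis.

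The deposited values are log2 signals in which each probe set was centred on its median over the 6 arrays, so they compare arrays with one another and hold no level of a gene. The labelled cell type could therefore not be checked by the levels of its markers. Both arrays of replicate 3 stood apart from the other 4 on the first principal component, which held 56.4% of the variance, and the spike-in controls were bright on 1 array, that of TGF-β replicate 2 (median 1.53 log2 units, elsewhere -0.17 to 0.06). Same-numbered arrays shared their deviations from the mean of the group (r = 0.69 to 0.85 across probe sets), and differences were therefore taken within each number. The p-values of the paired fit combine the spread among these 3 pairs with a spread common to all genes, and the common value weighed more. Of 10 measured genes on a list of known TGF-β targets, 9 rose in the paired fit, among them TGFBI, which encodes a secreted adhesion protein (log2 difference 3.39, SE 0.285, n = 3 pairs). Without the pairing, 0 of the 10 passed. This list was chosen with earlier results of the same arrays known, so its count is no independent check of the treatment or the fit. Of 15 measured markers of other cell types of the joint, 0 passed the test in limma, with 2 at an unadjusted p under 0.05 and 0 past it in limma without the pairing. That last fit called 0 of all 9155 genes, so its count of 0 sets no list apart. In the paired fit, 6.82% of all genes passed and 22.5% had an unadjusted p under 0.05.

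Few of the mitochondrial ribosomal protein genes passed the test for a difference between treated and untreated cultures. In the paired fit with limma, with p-values adjusted over all 9155 genes, 1 of 67 fell, 0 rose and 66 did not pass the threshold of 0.05. The member that fell was MRPS6. Members past the threshold thus made up 1.49%, where 624 of all genes, or 6.82%, passed it. Of all genes, 419 (4.58%) fell and 205 (2.24%) rose, and after quantile normalization between arrays 135 fell and 105 rose. A bulk culture cannot tell fewer cells that express a gene from less RNA of that gene per cell. At an unadjusted p under 0.05 there were 14 members, 11 of them higher and 3 lower with TGF-β, or 20.9%, beside 22.5% of all genes. Of all genes at that level, 770 were higher and 1293 lower.

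The differences of the other 66 members were small. They ran from -0.32 to 0.44 log2 units with a median of 0.06, and that of all 67 was 0.05, where the median of all genes was -0.01. With TGF-β, 41 members had a positive difference and 26 a negative one, and the share with a positive difference was 61.2%, against 48.1% of all genes. The median of the members was 0.05 in replicate 1, -0.00 in replicate 2 and 0.08 in replicate 3, with an SD of 0.042 among the replicates, and this shift was not tested. The positive and negative members numbered 40 and 27 without replicate 1, 45 and 22 without replicate 2 and 33 and 34 without replicate 3. After quantile normalization they numbered 48 and 19, and the median was 0.092. The standard errors of the members were 0.0867 to 0.143. The 95% interval of the difference lay within 2-fold in either direction for all 67 members, as it did for 96.9% of all genes. It lay within 1.5-fold for 60 members, or 89.6%, beside 84.0% of all genes. The other 7 members were MRPL15, MRPL16, MRPL2, MRPL32, MRPL36, MRPL34 and MRPS6. Only MRPS6 differed by at least 0.5 log2 units, which is 1.49% of members, and 6.36% of all genes did.

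**Figure D1:**
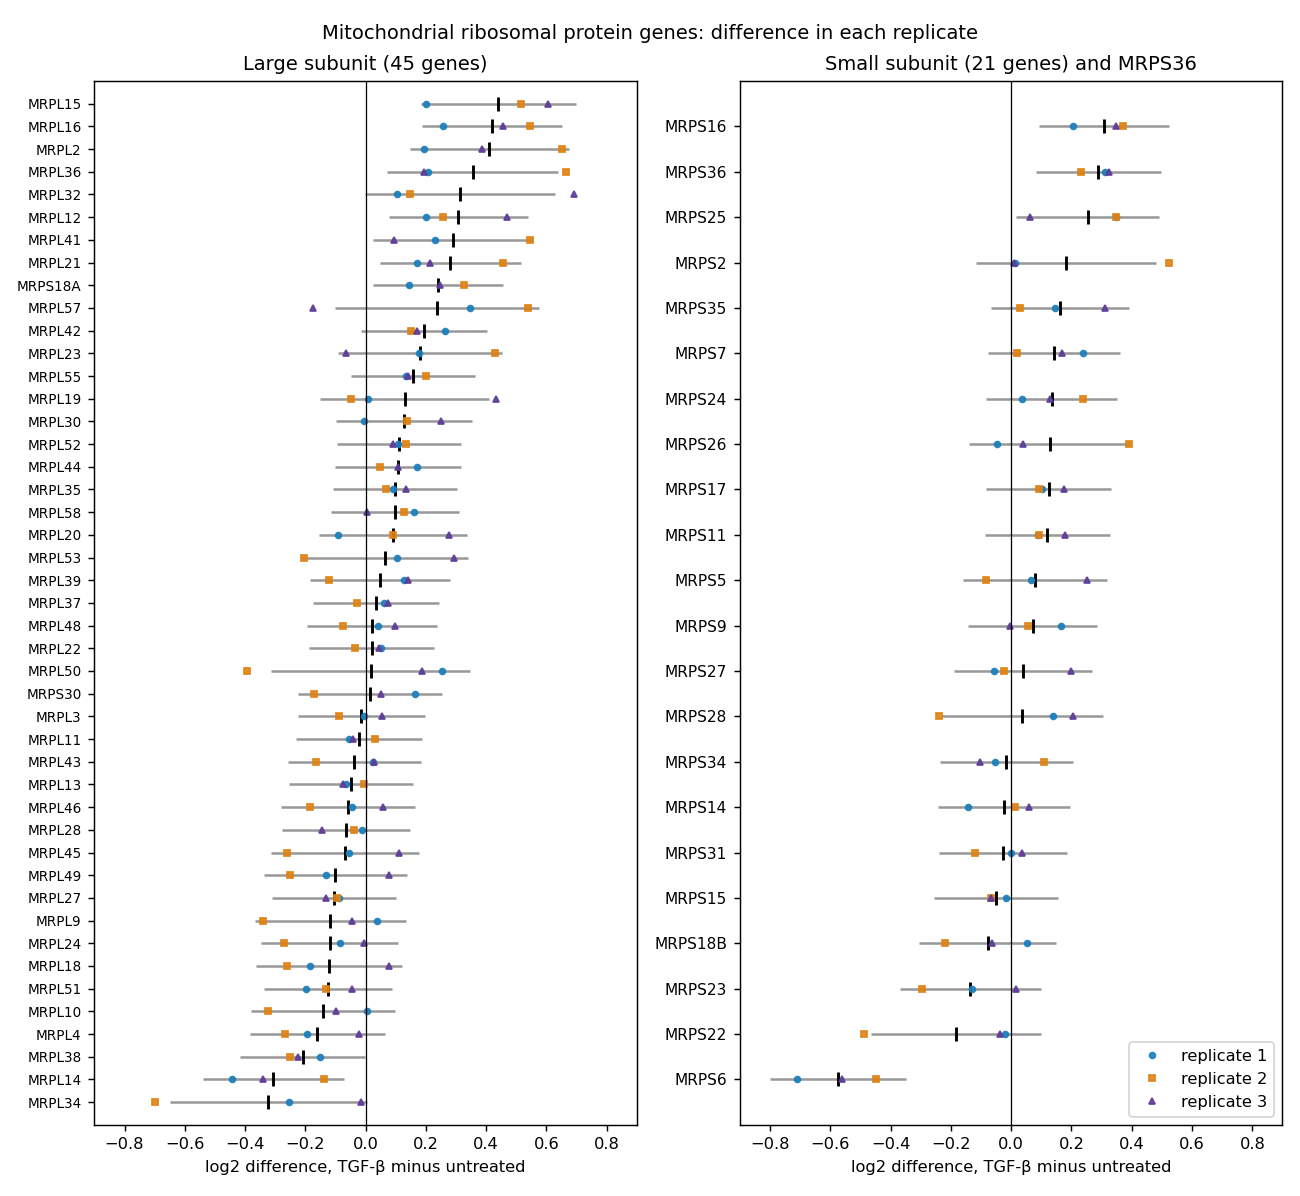
Log2 difference, TGF-β minus untreated, of each of the 67 genes (rows), by subunit. Coloured points are the 3 replicates, the black tick is their mean and the grey bar is the 95% interval of limma's paired fit. Most bars cross 0, and those of 14 genes, 11 above 0 and 3 below, do not (intervals unadjusted). MRPS6, at the bottom right, is at -0.57 with all 3 points below -0.4.

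MRPS6 encodes a protein of the small subunit whose bacterial counterpart is the ribosomal protein S6. On the untreated arrays of replicates 1, 2 and 3 its signal was 0.26, 0.20 and 0.36 log2 units, and on the TGF-β arrays it was -0.45, -0.25 and -0.20. All 3 TGF-β arrays lay below all 3 untreated arrays, and the gap between the groups was wider than the spread among the replicates of either group. MRPS6 fell by 0.57 on the log2 scale, or 1.49-fold, over 3 pairs (SE 0.0954, adjusted p = 0.0185 in limma's paired fit), with a 95% interval of -0.80 to -0.35. By its p-value it ranked 267 among all genes. The fall was seen in each pair, with differences of -0.71, -0.45 and -0.56. Its call did not hold without the arrays of replicate 1 (adjusted p = 0.0946) or of replicate 2 (0.0572), nor after quantile normalization (0.0665), and without the pairing the adjusted p was 0.399. A single probe set measured MRPS6. In the RefSeq annotation of the cow, the gene SLC5A3, which encodes a sodium-coupled myo-inositol transporter, overlaps the MRPS6 gene, and no probe set carries SLC5A3 as its single symbol. Which of the overlapping transcripts the probe set reads was not tested.

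MRPL14 encodes a large subunit protein at the face that meets the small subunit. Its mean signal was 0.12, -0.01 and 0.25 log2 units on the untreated arrays and -0.33, -0.15 and -0.09 on the TGF-β arrays, so that the groups did not overlap. The difference was -0.31 (SE 0.0989, adjusted p = 0.125). Its probe sets did not give the same picture, and their gap of 0.53 log2 units was the widest among the 14 members with more than 1 probe set, the next being 0.32. One of them went from 0.21, -0.02 and 0.50 on the untreated arrays to -0.59, -0.44 and 0.02 with TGF-β, a difference of -0.57 (SE 0.118, adjusted p over all probe sets 0.0263). The other went from 0.03, -0.00 and 0.00 to -0.06, 0.15 and -0.20, a difference of -0.04 (SE 0.115, adjusted p = 0.894). When probe sets were tested singly, 2 of the 84 passed, this one of MRPL14 and that of MRPS6, where 5.9% of all 24016 did. The gene TMEM63B, whose product is a mechanosensitive channel, overlaps MRPL14 in the annotation and had a difference of -0.31 (adjusted p = 0.150). Whether the probe sets of MRPL14 read different transcripts was not tested.

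**Figure D2:**
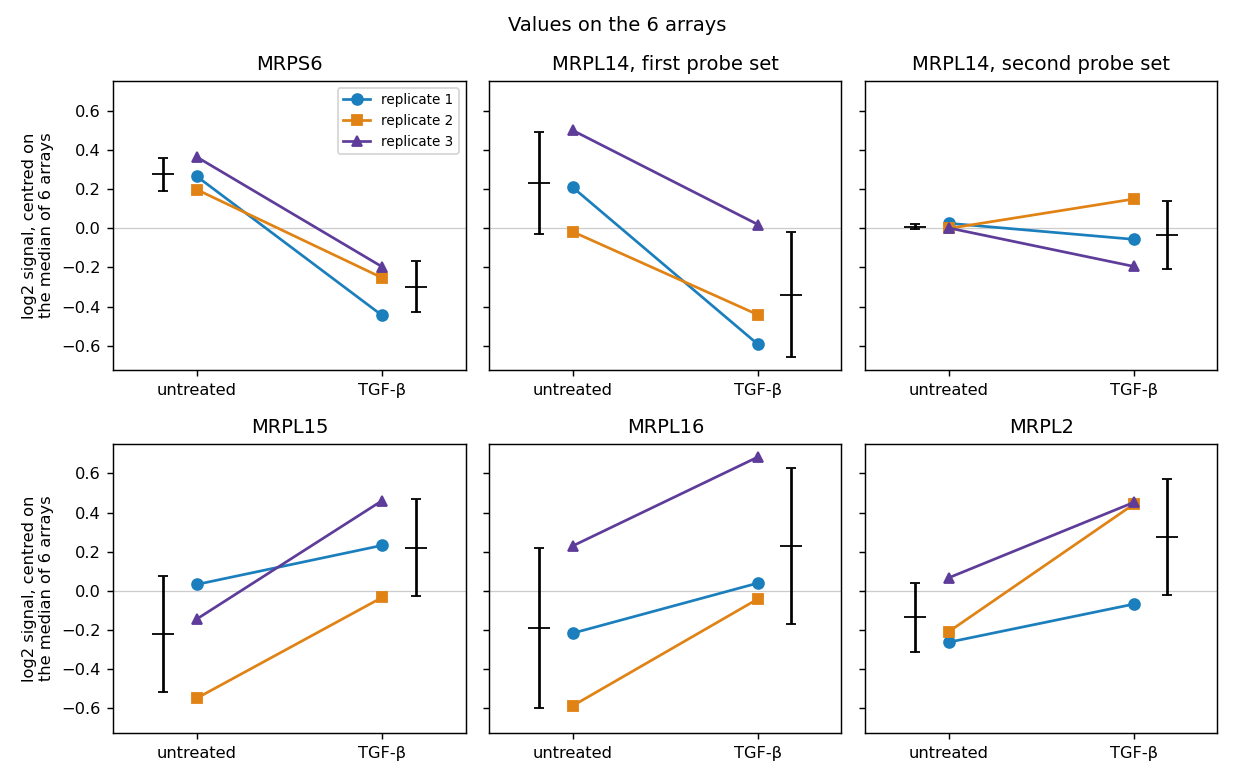
Log2 signal of MRPS6, of both probe sets of MRPL14 and of MRPL15, MRPL16 and MRPL2 on the 6 arrays, centred on the median of the 6. Lines join the untreated and TGF-β arrays of a replicate, and black bars give the mean and SD of the 3 arrays of a group. MRPS6 goes down in every replicate with no overlap between the groups, 1 probe set of MRPL14 stays near 0, and MRPL15, MRPL16 and MRPL2 go up in every replicate while their groups overlap.

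Among the large subunit genes, 27 of 45 had a positive difference, and the median was 0.04 log2 units. The members with the highest values were MRPL15, MRPL16 and MRPL2, whose products have bacterial counterparts in the body of the large subunit. The signal of MRPL15 was 0.03, -0.55 and -0.14 on the untreated arrays and 0.23, -0.03 and 0.46 on the TGF-β arrays. The difference was positive in every pair (0.20, 0.51 and 0.60), with a mean of 0.44 (SE 0.109, adjusted p = 0.0619), but the groups overlapped, and replicate 2 was the lowest in both. MRPL16 had -0.22, -0.59 and 0.23 without and 0.04, -0.04 and 0.68 with TGF-β, a difference of 0.42 (SE 0.0978, adjusted p = 0.0521). MRPL2, whose bacterial counterpart lies close to the centre where peptide bonds form, had -0.26, -0.21 and 0.07 without and -0.07, 0.44 and 0.45 with TGF-β, a difference of 0.41 (SE 0.112, adjusted p = 0.0814). All 3 missed the threshold after adjustment over all genes. Their unadjusted 95% intervals were 0.18 to 0.70, 0.19 to 0.65 and 0.15 to 0.68.

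MRPL36, MRPL32 and MRPL12 followed. MRPL36 encodes a small protein with a bacterial counterpart, and its differences were 0.21, 0.67 and 0.19, with a mean of 0.35 (SE 0.120, adjusted p = 0.139). MRPL32, whose product is cut by a protease of the inner mitochondrial membrane before it joins the ribosome, had differences of 0.10, 0.15 and 0.69, a mean of 0.31 (SE 0.133, adjusted p = 0.223) that rested mainly on replicate 3. MRPL12 is part of the stalk that binds translation factors and is also known to bind the mitochondrial RNA polymerase. Its signal went from -0.10, -0.50 and 0.15 to 0.10, -0.24 and 0.62, and its difference was 0.31 (SE 0.0969, adjusted p = 0.115). In MRPL36 and MRPL12, as in MRPL16, replicate 2 was the lowest of the untreated arrays and replicate 3 the highest, and the range over the untreated arrays (0.95, 0.65 and 0.82) was larger than the difference between treatments.

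At the other end of the large subunit, MRPL34 had the lowest difference. Its signal was 0.13, -0.16 and 0.81 without and -0.13, -0.86 and 0.79 with TGF-β, and the mean difference of -0.32 (SE 0.138, adjusted p = 0.227) came mostly from replicate 2, with -0.70, whereas replicate 3 had -0.01. MRPL38, which is specific to mitochondria, differed little but evenly. It had 0.09, 0.06 and 0.08 on the untreated arrays and -0.06, -0.19 and -0.14 on the TGF-β arrays, with no overlap and a difference of -0.21 (SE 0.0879, adjusted p = 0.221). MRPL4, whose bacterial counterpart lines the tunnel through which the new peptide leaves, had a difference of -0.16 (SE 0.0948, adjusted p = 0.386). MRPL45, which holds the ribosome at the inner membrane, had -0.07 (SE 0.104), MRPL44, which has the fold of a ribonuclease, had 0.11 (SE 0.0885), and MRPL58, which can free peptides from stalled ribosomes, had 0.10 (SE 0.0900). None of these 6 passed the test.

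Among the small subunit genes, 13 of 21 had a positive difference, with a median of 0.07 log2 units, and MRPS6 was the only member that passed the threshold. MRPS16, which has a bacterial counterpart, had the highest value, 0.31 (SE 0.0909, adjusted p = 0.0992), with differences of 0.20, 0.37 and 0.35. MRPS22, which is specific to mitochondria, had the lowest value after MRPS6, -0.18 (SE 0.119, adjusted p = 0.438). Its signal was 0.02, -0.42 and 0.04 on the untreated arrays and 0.00, -0.91 and -0.00 on the TGF-β arrays, so that the difference lay almost wholly in replicate 2, whose TGF-β array was the one with bright spike-in controls. The part of that array in the value was not tested.

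Members with a bacterial counterpart had a median difference of 0.08 log2 units over 38 genes, and those specific to mitochondria had one of 0.03 over 28 genes, with ranges of -0.57 to 0.44 and -0.21 to 0.29. The difference between these classes was not tested.

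In 5 members, all 3 arrays of a group lay beyond all 3 of the other. TGF-β was lower in MRPS6, MRPL14 and MRPL38 (3 of 67, where 5.83% of all genes did not overlap in this direction) and higher in MRPL21 and MRPS36 (2 of 67, where 5.05% did). MRPL21 encodes a large subunit protein with a bacterial counterpart. Its signal was -0.11, -0.26 and -0.07 on the untreated and 0.07, 0.20 and 0.15 on the TGF-β arrays, a difference of 0.28 (SE 0.0988, adjusted p = 0.152). MRPS36, the member that belongs to the α-ketoglutarate dehydrogenase complex, had -0.08, -0.15 and -0.24 without and 0.23, 0.08 and 0.08 with TGF-β, a difference of 0.29 (SE 0.0878, adjusted p = 0.107), and its pairs were close to one another at 0.31, 0.23 and 0.32.

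Ribosomal proteins of the mitochondrion that carry other names lay near 0. DAP3, PTCD3, CHCHD1 and AURKAIP1 of the small subunit and GADD45GIP1 of the large subunit had differences of -0.01, 0.08, 0.00, 0.01 and 0.01 log2 units, and 0 of the 5 passed the test in limma, with 0 at an unadjusted p under 0.05 and 0 without the pairing. The factors that work on this ribosome were counted in the same way. Of 13 measured translation factors, 0 passed the test in limma, 0 had an unadjusted p under 0.05 and 0 passed without the pairing. In all, 4 of the 13 had a positive difference and 9 a negative one. Of all genes, 6.82% passed the paired fit and 22.5% had an unadjusted p under 0.05. A count of 0 past the threshold thus does not set lists this short apart. The fit without the pairing called 0 of all genes, so its 0 tells nothing about this list or the others. TUFM, the elongation factor that brings aminoacyl-tRNA, had -0.03 (SE 0.0902), GFM1, which moves the ribosome along, had -0.02 (SE 0.105), and MTIF2, the initiation factor, had -0.44 with a large error (SE 0.217, adjusted p = 0.295) and was at -1.06 on the TGF-β array of replicate 2.

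Genes for assembly of the ribosome and modification of its RNA numbered 22 on the array, and 0 passed the test in limma (3 at an unadjusted p under 0.05, 0 without the pairing). For this list and the next ones, the shares of all genes were 6.82% past the threshold and 22.5% at an unadjusted p under 0.05. Of 17 mitochondrial aminoacyl-tRNA synthetases, 0 passed (2 at an unadjusted p under 0.05, 0 without the pairing). Of these 17, 4 had a positive difference and 13 a negative one, with a median of -0.06 log2 units. The positive share was 23.5%, against 48.1% of all genes, and this lean was not tested. The members of this list with the smallest p lay on either side of 0, with LARS2, for leucine, at 0.36 (adjusted p = 0.0822) and IARS2, for isoleucine, at -0.36 (adjusted p = 0.0720). Of 8 genes for transcription and replication of mitochondrial DNA, 0 passed (3 at an unadjusted p under 0.05, 0 without the pairing), although 1 passed, with a negative difference, when replicate 1 was left out. Of 6 regulators of mitochondrial biogenesis, 0 passed (0 at an unadjusted p under 0.05, 0 without the pairing). The transcription factor NRF1, a known activator of nuclear genes for mitochondrial proteins, had 0.11 (SE 0.0903), the coactivator PPARGC1A had -0.05 (SE 0.0916) and MYC had 0.23 (SE 0.110, adjusted p = 0.280). Of 24 genes for protein import, 1 rose and 0 fell. TIMM10, which encodes a chaperone of the space between the membranes, rose by 0.46 log2 units (SE 0.104, adjusted p = 0.0483), and it did not pass without any of the 3 replicates. Positive and negative differences numbered 11 and 11 in the assembly genes and 5 and 3 in transcription and replication. They numbered 5 and 1 in the biogenesis regulators and 16 and 8 in the import genes.

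Cytosolic ribosomal protein genes and oxidative phosphorylation genes are the groups most like these in size and function. Of 68 cytosolic ribosomal protein genes, 2 fell (RPL24 by 0.72 and RPS27L by 0.45) and 0 rose, the median was -0.02, and 27 had a positive difference. Without any 1 of the replicates, 1 of the 68 passed. The probe set of RPL24 is named for another gene in the study's own list, so its identity is uncertain. Of 79 oxidative phosphorylation genes, 0 passed in limma (9 at an unadjusted p under 0.05, 0 without the pairing). Of all genes, 6.82% passed and 22.5% had an unadjusted p under 0.05. The median of the 79 was 0.00, 40 had a positive difference, and 1 passed without replicate 3. The middle of the distribution, from the lower to the upper quartile, ran from -0.06 to 0.16 in the mitochondrial ribosomal genes, from -0.06 to 0.02 in the cytosolic ones, from -0.11 to 0.07 in the oxidative phosphorylation genes and from -0.14 to 0.11 in all genes. The differences between these groups were not tested.

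**Figure D3:**
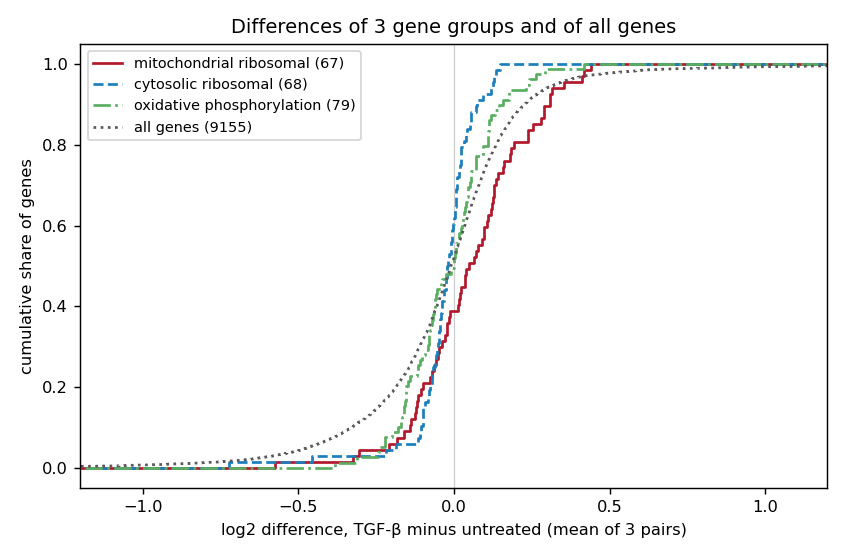
Cumulative share of genes against the log2 difference, TGF-β minus untreated (mean of 3 pairs), for the mitochondrial ribosomal genes, the cytosolic ribosomal genes, the oxidative phosphorylation genes and all genes, drawn from -1.2 to 1.2 (all genes reach from -2.31 to 3.39). The 3 groups rise over a narrow range around 0, with medians of 0.05, -0.02 and 0.00 log2 units.

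On the median over the mitochondrial ribosomal genes, replicate 2 was the lowest and replicate 3 the highest in both treatments. The range over the 3 untreated arrays was larger than the size of the difference between treatments in 56 of 67 members, or 83.6%, close to the 84.2% of all genes. Its median was 0.43 log2 units over the members and 0.35 over all genes, and the median size of the TGF-β difference was 0.12 in both. The median of the members was -0.00, -0.19 and 0.22 log2 units on the untreated arrays of replicates 1, 2 and 3. On the TGF-β arrays it was 0.03, -0.15 and 0.29. The median of all genes lay between -0.01 and 0.01 on every array, where normalization and the centring of each probe set tend to hold it. In 45 members (67.2%) replicate 2 was the lowest in both treatments, as in 22.7% of all genes, and in 41 (61.2%) replicate 3 was the highest in both, as in 28.7% of all genes. The whole order, with replicate 2 below replicate 1 and replicate 1 below replicate 3 in both treatments, held in 32 members, or 47.8%, and in 13.4% of all genes. These counts describe 3 cultures in each treatment, and all members share the same 6 arrays.

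The widest range over the 6 arrays was that of MRPL34, at 1.67 log2 units, followed by MRPL18 (1.64), MRPL24 (1.56) and MRPS26 (1.48). MRPL18, which encodes a large subunit protein, had 0.09, -0.32 and 0.98 on the untreated and -0.09, -0.58 and 1.06 on the TGF-β arrays. MRPL24, next to the exit of the peptide tunnel, had 0.04, -0.53 and 0.76 and then -0.04, -0.80 and 0.75. MRPS26, a small subunit protein specific to mitochondria, had 0.02, -0.44 and 1.001 and then -0.02, -0.05 and 1.04. In all of them the arrays of replicate 3 stood above the others in both treatments, and the difference with TGF-β was no more than 0.13 in size for MRPL18, MRPL24 and MRPS26. The narrowest range was that of MRPL48, at 0.19.

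A high replicate 3 was seen in some other mitochondrial groups and not in others. Replicate 3 lay above the mean of replicates 1 and 2 in both treatments in 53 of 67 mitochondrial ribosomal genes, in 68 of 79 oxidative phosphorylation genes and in 22 of 24 import genes, where 39.7% of all genes did. It also did so in 4 of 5 mitochondrial ribosomal proteins with other names and 5 of 8 genes for transcription and replication of mitochondrial DNA. Among biogenesis regulators it did so in 3 of 6, and among translation factors in 7 of 13, or 53.8%. It did so in 6 of 17 aminoacyl-tRNA synthetases and 6 of 22 genes for ribosome assembly, and in 24 of 68 cytosolic ribosomal genes, a share of 35.3%. The median excess of replicate 3 was 0.34 log2 units in the untreated and 0.38 in the TGF-β cultures for the mitochondrial ribosomal genes, 0.38 and 0.37 for oxidative phosphorylation, -0.01 and 0.03 for cytosolic ribosomal genes and -0.04 and -0.06 for the assembly genes. Genes of the cell cycle moved in the same arrays with a far larger excess, 2.40 and 2.07 log2 units over 34 genes, and 33 of them lay higher in replicate 3 in both treatments. With TGF-β, 2 of these genes fell, MCM4 of the replicative helicase by 0.60 and RRM1 of ribonucleotide reductase by 0.40, and 1 and 0 passed without replicates 1 and 2. Without replicate 3, 1 fell and 1 rose. Chondrocyte markers had the opposite sign in replicate 3, with medians of -0.73 and -0.52 over 11 genes, and the 15 markers of other cell types had -0.15 and -0.08. With TGF-β, 2 chondrocyte markers rose (COMP and PRG4) and 2 fell (COL11A1 and CNMD), and 1 marker passed without replicate 1 and 1 without replicate 2. The part of proliferation or of cell state in the values of the mitochondrial genes was not tested. Within the mitochondrial ribosomal genes, the excess was 0.30 and 0.36 for the large and 0.40 and 0.50 for the small subunit, and it was 0.45 and 0.52 for members with a bacterial counterpart and 0.22 and 0.32 for those specific to mitochondria. The 14 members without an excess in both treatments include MRPL10, MRPL27, MRPL41, MRPL44, MRPS18A and MRPS36, in which replicate 3 was the lower in both.

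**Figure D4:**
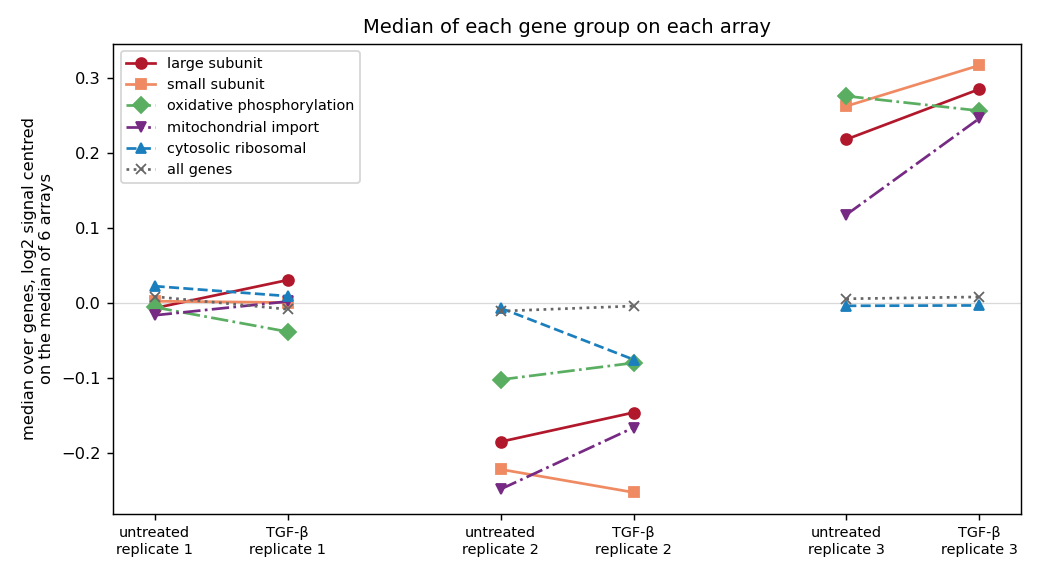
Median over the genes of each group on each of the 6 arrays, in log2 signal centred on the median of the 6. Lines join the untreated and TGF-β arrays of a replicate. The large and small subunit lie at -0.25 to -0.15 in replicate 2 and at 0.22 to 0.32 in replicate 3 in both treatments. The import genes lie at -0.25 and -0.17 in replicate 2 and at 0.12 and 0.25 in replicate 3 (untreated, then TGF-β). The oxidative phosphorylation genes lie at -0.10 and -0.08 and at 0.28 and 0.26. The cytosolic ribosomal genes and all genes stay within 0.08 of 0.

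**Figure D5:**
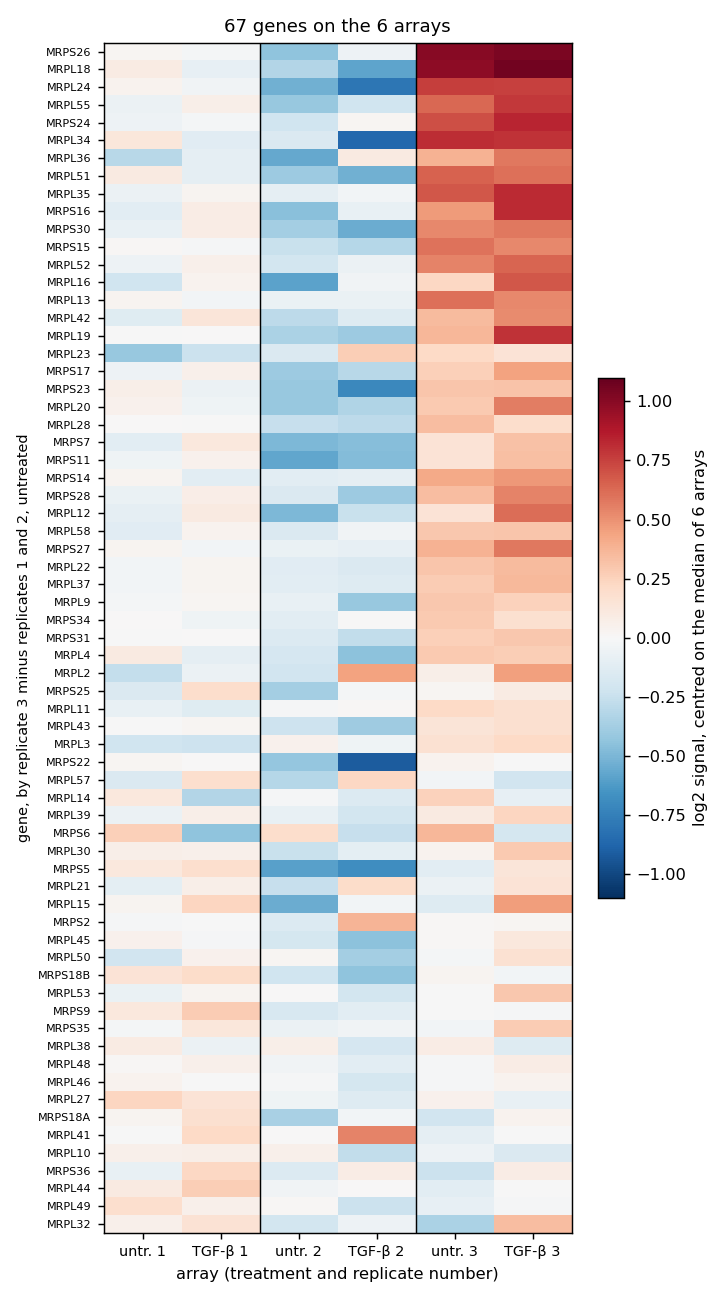
Log2 signal of all 67 genes on the 6 arrays, centred on the median of the 6, with the arrays of each replicate side by side and genes ordered by the excess of replicate 3 over replicates 1 and 2 in the untreated cultures. Red columns at the right (replicate 3, up to 1.06) and blue columns in the middle (replicate 2, down to -0.91) run through both treatments in most of the genes.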

How the data were processed

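The values are log2 signals deposited by the authors, who extracted the arrays with the Affymetrix GeneChip Command Console and, in GeneSpring, subtracted background and normalized by the Robust Multichip Average (versions not given in the sources used here). As deposited, the 6 values of every probe set have a median of 0 (within 5e-07). A filter on dim probe sets was thus not possible, and Robust Multichip Average can understate fold changes. The number of arrays limits the precision.

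Of 24128 probe sets, 112 controls were left out and 24016 kept. 13292 had a single symbol, 13263 of them matched to a current symbol through their Entrez ID, 86 had several and 10638 none. Probe sets of a gene were averaged (9155 genes). No 2 arrays shared more than 56 values.

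Differences, TGF-β minus untreated, were tested in the package limma (version 3.58.1, under R 4.3.3), 2-sided, with Benjamini-Hochberg adjustment over all genes and a threshold of 0.05. The paired fit holds a term for each replicate number. The study grew cultures of each of 3 cows with and without TGF-β1, but the labels do not tie the number to the cow. Numbers were accepted as pairs because the deviations of same-numbered arrays had r = 0.740, 0.694 and 0.845 (other numbers -0.68 to 0.18). Residual degrees of freedom were 2, the prior SD 0.125 and the prior degrees of freedom 4.98. The value common to all genes thus weighed more than the spread of a gene's own pairs. In tests of the fit on simulated data of 9155 genes, 31.8% of simulated log2 differences of 0.5 and 97.4% of those of 1 were called. The members, lists and tests were chosen with earlier results of these data known. Members named are those past the threshold, the 6 highest and 6 lowest differences and those with no overlap and at least 0.5; MRPL21, MRPS36, MRPS16, MRPL18, MRPL24, MRPL44, MRPL45, MRPL48, MRPL58, MRPS26 and the members listed by replicate were chosen after their values were seen. Subunits and bacterial counterparts were assigned by hand. Figures were drawn with matplotlib 3.10.9.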

Additional observations from a re-analysis of the deposited data

How the results depend on the processing

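The count of mitochondrial ribosomal genes past the threshold, 1 in the paired fit, was 0 with limma on the groups alone (without the pairing), 0 with the unequal-variance test of the methods, 0 after quantile normalization, 2 on single probe sets (MRPS6 and MRPL14) and 0 to 1 when each replicate was left out with both its arrays. At an unadjusted p under 0.05 there were 4 members on the groups alone and 5 with the unequal-variance test, and of all genes limma then called 0, with 535 at an unadjusted p under 0.05. The paired fit called 624 genes, 320 and 202 without replicates 1 and 2, and 240 after quantile normalization. The share of these calls that were higher was 32.9%, against 44.6% without replicate 2, 43.8% after quantile normalization and 41.3% among single probe sets. The median difference of the members, 0.05, ran from -0.00048 to 0.080 without single replicates and was 0.092 after quantile normalization. For 14 named members there were 154 recalculations, and all kept the sign. Annotated symbols, the robust prior and both fits without the pairing leave the mean difference as it was, so the sign could not change there. The same holds for members with 1 probe set when probe sets were tested singly or shared ones left out. The fits without the pairing called 0 of all genes, so members without a call had to stay so. Of the 154, 148 stayed on the same side of the threshold, 5 lost the call of MRPS6 and 1 added that of a probe set of MRPL14. Why these calls changed was not tested. Median scaling and a robust prior changed no member's call. Leaving out shared probe sets kept 62 members, MRPL38 not among them, and changed no call of those kept. Annotated symbols gave the same genes and the same 624 calls as the paired fit, so no call could change. No filter on dim probe sets could be run, and having 3 pairs limits what can be called.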
